A study of Homo sapiens with 10 samples.

Results

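The genes described here are CIITA and the DNA-binding factors of the MHC class II promoter: the RFX subunits RFX5, RFXAP and RFXANK, the NF-Y subunits NFYA, NFYB and NFYC, and the CREB family members CREB1, ATF1 and CREM. They were taken by symbol from the deposited count table, in which all 10 were found among 21174 gene identifiers, and all 10 passed the filter on low counts with 11961 genes in all. RNA was sequenced from clones of U2932, a human cell line established from a diffuse large B cell lymphoma, which is a tumour of mature B cells. The clones labelled CREBBP+/- (5 libraries, Het_6 to Het_10) were set against clones labelled CREBBP+/+ (5 libraries, WT_1 to WT_5), and no treatment is given for either group. CREBBP encodes a histone acetyltransferase that serves as a transcriptional coactivator. The sources used here do not give how the allele was altered or whether clones were grown separately, so the spread behind each p-value is that between libraries and may be technical.

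MHC class II molecules present peptides to CD4 T cells, and B cells are among the cell types that make them all the time. Promoters of class II genes share a block of short elements: RFX binds the X1 box, CREB family proteins the X2 box and NF-Y the Y box. CIITA does not bind this DNA itself. It docks on the assembled factors and recruits coactivators, CREBBP among them, and inherited loss of CIITA or of an RFX subunit abolishes class II expression in the bare lymphocyte syndrome.

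Letters of the X2 and Y boxes are marked in 5 class II promoters to show what such elements look like. The comparison of CIITA with its targets below did not use these matches. The sequences are RefSeq's (GRCh38.p14), not those of this line, in gene orientation from 160 to 31 bases before the annotated start. Capitals mark TGATG, the letters searched for at the X2 box, which an X2 box may lack. They also mark ATTGG or its reverse complement CCAAT, the letters of the Y box. The coordinates are chr6:32589879-32590008 (minus strand) for HLA-DRB1, chr6:32953128-32953257 (minus) for HLA-DMA, chr6:33075830-33075959 (plus) for HLA-DPB1, chr6:32817033-32817162 (minus) for HLA-DOB and chr5:150412941-150413070 (minus) for CD74.
HLA-DRB1: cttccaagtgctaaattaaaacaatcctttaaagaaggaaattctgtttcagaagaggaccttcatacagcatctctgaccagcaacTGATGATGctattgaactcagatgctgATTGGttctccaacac
HLA-DMA: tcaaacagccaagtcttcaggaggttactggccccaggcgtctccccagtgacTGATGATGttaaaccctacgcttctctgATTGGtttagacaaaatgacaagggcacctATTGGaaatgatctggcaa
HLA-DPB1: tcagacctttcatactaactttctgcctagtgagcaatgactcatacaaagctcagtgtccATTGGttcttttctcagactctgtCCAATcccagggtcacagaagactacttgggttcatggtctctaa
HLA-DOB: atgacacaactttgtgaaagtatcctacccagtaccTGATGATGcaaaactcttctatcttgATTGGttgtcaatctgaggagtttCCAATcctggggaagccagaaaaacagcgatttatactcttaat
CD74: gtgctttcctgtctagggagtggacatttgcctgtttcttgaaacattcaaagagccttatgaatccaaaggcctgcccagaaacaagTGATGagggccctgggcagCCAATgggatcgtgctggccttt

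In HLA-DRB1 the Y box letters began 46 bases before the start and the nearer copy of TGATG 70 bases before it. In HLA-DPB1, ATTGG and CCAAT stood 99 and 75 bases before the start. TGATG was not in the stretch shown, which does not mean that an X2 box is absent there. RefSeq windows of 300 bases (250 before a start and 50 after it) matched 12 of 13 listed class II genes (13 windows) and 8 of the 10 factors (22 windows), and no sequence is shown for CIITA, NFYB or HLA-DRA. The Y box letters, on either strand, were in 11 of 13 class II windows (84.6%) and in 34.6% of all 35116 windows. TGATG, on either strand, was in 10 of the 13 (76.9%) and in 32.9% of all windows. TGATG followed within 40 bases by ATTGG or CCAAT, read in gene orientation, was in 5 of the 13 (38.5%) and in 1.34% of all windows. These 5 were HLA-DRB1, HLA-DRB5, HLA-DMA, HLA-DOB and CD74, so every promoter shown except that of HLA-DPB1 has the pair. The pair was in 1 of 22 windows of the factors' own genes (4.55%), at NFYC. Other letters searched for stood out less. GCAAC, for the X1 box, was in 6 of the 13 (46.2%) and in 33.6% of all windows, on either strand. TGACG, a half-site of CREB proteins, was in 6 of the 13 (46.2%) and in 24.6% of all windows, on either strand. These are matches of letters and not measured binding sites, and the motifs were chosen after the sequences were seen.

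Total counts ranged from 10615977 to 23020694 in CREBBP+/- libraries and from 16542932 to 21817971 in CREBBP+/+ libraries. The factor with the fewest counts in a library was ATF1 in Het_9, with 251. All 5 B cell markers on a fixed list were detected, with a summed level of 1809 to 3126 CPM (counts scaled to library size) in CREBBP+/- clones, against 1794 to 3133 CPM in CREBBP+/+ clones. None of 5 T cell markers passed the filter on low counts, and their sum was at most 1.397 CPM in CREBBP+/- clones, against 0.879 CPM in CREBBP+/+ clones, with CD3D at 0. Of 6 myeloid and dendritic markers 1 was tested, and the sum was at most 1.42 CPM in CREBBP+/- clones, against 1.36 CPM in CREBBP+/+ clones, with ITGAX and FCGR3A at 0. Of 5 stromal and epithelial markers 1 was tested, and the sum was 13.9 to 26.9 CPM in CREBBP+/- clones, against 1.69 to 25.1 CPM in CREBBP+/+ clones, with COL1A2 at 0. For CREBBP itself the mean was 69.6 ± 10.2 CPM with the CREBBP+/- genotype and 115 ± 13.5 CPM with CREBBP+/+ (SD, n = 5 each), and the groups did not overlap. Clustered on all other genes, the libraries fell into 3 groups: Het_8 with WT_1 and WT_2, Het_6 and Het_7 with WT_3, WT_4 and WT_5, and Het_9 with Het_10. The last group held no CREBBP+/+ library, and the others held both genotypes.

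**Figure D1:**
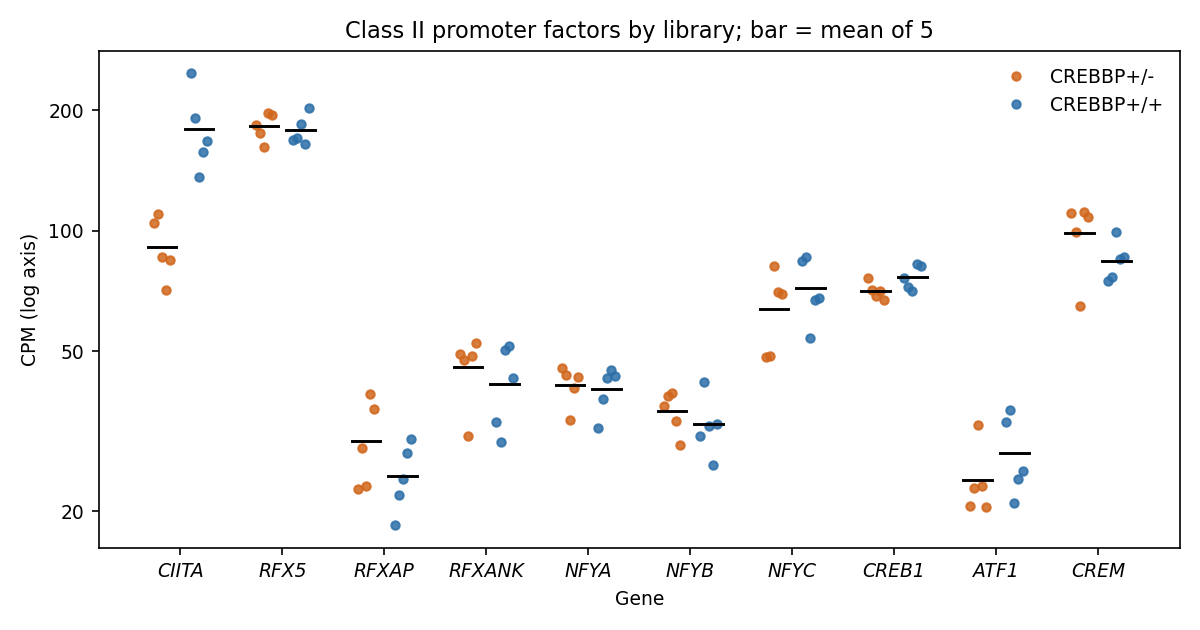
CPM of the 10 factors (log axis) in each library, with CREBBP+/- libraries in orange to the left and CREBBP+/+ libraries in blue, and a bar at each mean of 5. CIITA is the factor whose groups do not overlap, with 71.1 to 110 CPM in CREBBP+/- clones, against 136 to 247 CPM in CREBBP+/+ clones.

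CIITA mRNA stood at about the same distance below its CREBBP+/+ level as the mRNA of its target HLA-DRA, while no other factor separated the genotypes. CIITA (ENSG00000179583, chromosome 16, 10866222 to 10943021, GRCh38) had 105, 110, 85.8, 71.1 and 84.7 CPM in Het_6 to Het_10, against 247, 192, 136, 157 and 167 CPM in WT_1 to WT_5. The highest CREBBP+/- library, Het_7, lay below the lowest CREBBP+/+ library, WT_3. CIITA averaged 91.3 ± 15.9 CPM over the CREBBP+/- clones and 180 ± 42.5 CPM over the CREBBP+/+ clones (SD, n = 5 each), a level 1.97-fold lower with CREBBP+/-. On the log2 scale the fold change of CIITA was -0.98, with an SE of 0.17 and a 95% confidence interval from -1.36 to -0.59. In bulk RNA, fewer cells with the transcript and less of it per cell cannot be told apart.

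CIITA did not pass the threshold over all genes in the main test. Its edgeR adjusted p was 0.395, and edgeR called 0 of 11961 genes (0.0%) after adjustment at 0.05. Before adjustment, CIITA was the single factor of the 10 under 0.05 in edgeR, against 596 of all genes tested (4.98%). DESeq2 called CIITA (adjusted p = 0.000357) and no other factor, with 33 of 15587 genes called (0.212%), and limma-voom called 0. An exact permutation test over the 252 assignments of libraries gave p = 0.00794, the smallest that 5 against 5 allow, and 0.763 after adjustment over all genes tested. Groups did not overlap in 1 of the 10 factors, which was lower in CREBBP+/-, and in 1.02% of all genes tested, 0.594% lower and 0.426% higher in CREBBP+/-.

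The CIITA difference was present in each library cluster that held both genotypes. Het_8 lay 1.34 below the mean of WT_1 and WT_2 on the log2 CPM scale, a 2.53-fold difference. The mean of Het_6 and Het_7 lay 0.51 below that of WT_3, WT_4 and WT_5, a 1.42-fold difference. Het_9 and Het_10, with the 2 lowest CIITA levels of all 10 libraries, shared their cluster with no CREBBP+/+ library. With the clusters as a covariate the log2 fold change was -0.80, and without Het_9 and Het_10 it was -0.84.

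Part of the CIITA span is shared with DEXI, a gene on the opposite strand whose exons overlap those of CIITA, and the sources used here do not say whether counting used strand. DEXI had 9.71 ± 2.45 CPM in CREBBP+/- clones, against 7.57 ± 2.22 CPM in CREBBP+/+ clones (n = 5 each), below CIITA in every library, with an estimate on the other side of 0 (log2 fold change 0.36, SE 0.25).

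**Figure D2:**
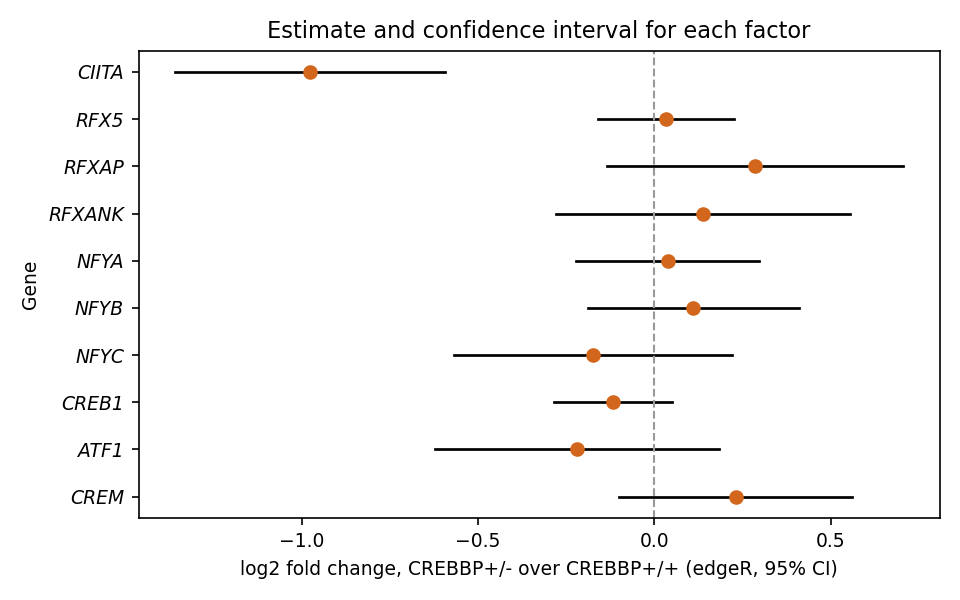
Log2 fold change of each factor, CREBBP+/- over CREBBP+/+ (points), with the edgeR 95% confidence interval (lines). The interval of CIITA runs from -1.36 to -0.59, and those of the other 9 factors include 0.

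RFX is a trimer that binds the X1 box, and its subunits had estimates above 0. RFX5, the DNA-binding subunit (ENSG00000143390, chromosome 1, 151340640 to 151347326), had 184, 176, 162, 197 and 194 CPM in Het_6 to Het_10, against 169, 170, 185, 165 and 203 CPM in WT_1 to WT_5. Its groups overlapped almost fully, with means of 182 ± 14.1 CPM in CREBBP+/- clones, against 178 ± 15.6 CPM in CREBBP+/+ clones (n = 5 each). The log2 fold change was 0.03, with an interval of -0.16 to 0.23, among the narrowest of the 10. RFXAP, the RFX-associated protein (ENSG00000133111, chromosome 13, 36819222 to 36829104), had 22.7, 28.7, 23.1, 39.2 and 35.9 CPM in Het_6 to Het_10, against 18.4, 21.9, 24.0, 27.9 and 30.3 CPM in WT_1 to WT_5. Het_9 and Het_10 were above every CREBBP+/+ library, and the other CREBBP+/- libraries were within their range (log2 fold change 0.29, interval -0.13 to 0.71). With the library clusters as a covariate the RFXAP estimate was 0.01.

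RFXANK, the ankyrin-repeat subunit (ENSG00000064490, chromosome 19, 19192229 to 19201869), had 49.2, 47.7, 30.8, 48.7 and 52.4 CPM in Het_6 to Het_10, against 33.4, 29.7, 50.3, 51.5 and 43.0 CPM in WT_1 to WT_5. The low libraries were Het_8, WT_1 and WT_2, so the split ran across the genotypes (log2 fold change 0.14, interval -0.28 to 0.56). Exons of RFXANK overlap those of BORCS8 and NR2C2AP on the opposite strand, so its counts carry the same uncertainty as those of CIITA. Per kilobase of merged exons, RFX5 had 40.1 ± 3.10 CPM in CREBBP+/- clones, against 39.2 ± 3.42 CPM in CREBBP+/+ clones (n = 5 each), above RFXANK at 18.3 ± 3.42 and 16.6 ± 3.92 CPM and RFXAP at 12.97 ± 3.23 and 10.6 ± 2.04 CPM. RFX5 was the highest of the 10 factors per kilobase in both genotypes. By merged exons RFXANK was above RFXAP in every library. Their ranges over the CREBBP+/+ libraries overlapped, at 11.9 to 20.6 and 7.98 to 13.1 CPM per kilobase. With MANE Select lengths they stood further apart, at 30.2 ± 7.13 CPM per kilobase for RFXANK and 10.6 ± 2.04 for RFXAP in these libraries (SD, n = 5).

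NF-Y binds the Y box as a trimer, in which NFYB and NFYC pair through histone-fold domains and NFYA contacts the CCAAT sequence. NFYA (ENSG00000001167, chromosome 6, 41072974 to 41102403) had 45.4, 43.7, 33.8, 40.6 and 43.2 CPM in Het_6 to Het_10, against 32.2, 38.0, 42.9, 44.8 and 43.5 CPM in WT_1 to WT_5. Het_8, WT_1 and WT_2 were again the low libraries (log2 fold change 0.04, interval -0.22 to 0.30). NFYB (ENSG00000120837, chromosome 12, 104117086 to 104138241) had 36.5, 38.7, 39.5, 33.5 and 29.2 CPM in Het_6 to Het_10, against 30.7, 42.0, 32.6, 26.1 and 33.0 CPM in WT_1 to WT_5, with overlapping groups (log2 fold change 0.11, interval -0.19 to 0.41). NFYC (ENSG00000066136, chromosome 1, 40691648 to 40771603) had 48.4, 48.8, 81.7, 70.2 and 69.7 CPM in Het_6 to Het_10, against 84.1, 86.2, 53.9, 67.4 and 68.0 CPM in WT_1 to WT_5. Here Het_8, WT_1 and WT_2 were the high libraries (log2 fold change -0.17, interval -0.57 to 0.22). With the library clusters as a covariate the estimates were further from 0 for NFYC (-0.26, edgeR adjusted p = 0.338) and NFYB (0.23, adjusted p = 0.456).

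The ratio of NF-Y subunits moved with the clusters as well. NFYC per NFYA, on the per-kilobase scale, was 2.501 in Het_8, against 2.70 in WT_1 and 2.35 in WT_2, and it was 1.11 to 1.79 in the other CREBBP+/- libraries and 1.304 to 1.62 in the other CREBBP+/+ libraries. NFYB per NFYA was 0.856 to 1.48 in CREBBP+/- clones, against 0.738 to 1.4 in CREBBP+/+ clones. Exons of NFYA overlap those of OARD1 on the opposite strand.

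CREB family proteins are basic leucine zipper factors that bind cyclic AMP response elements, and the phosphorylated form of CREB1 binds CREBBP directly. CREB1 (ENSG00000118260, chromosome 2, 207529737 to 207605988) had 76.4, 71.0, 68.6, 70.7 and 67.3 CPM in Het_6 to Het_10, against 76.5, 72.5, 70.6, 82.6 and 81.7 CPM in WT_1 to WT_5. It varied least of the 10 factors, with a coefficient of variation of 4.94% in CREBBP+/- and 6.95% in CREBBP+/+ libraries. Its log2 fold change was -0.12 (SE 0.08, interval -0.28 to 0.05, exact permutation p = 0.0794, n = 5 each), and Het_8 and Het_10 lay below every CREBBP+/+ library. Leaving out WT_3 gave an exact permutation p of 0.0397 for CREB1, not adjusted, with a difference of -0.14 in log2 CPM (n = 5 and 4). Leaving out any other library gave an exact permutation p of 0.0556 to 0.143. The edgeR adjusted p without WT_3 was 0.849.

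ATF1, the closest relative of CREB1 with CREM (ENSG00000123268, chromosome 12, 50763710 to 50821162), had 20.6, 22.8, 32.7, 23.1 and 20.5 CPM in Het_6 to Het_10, against 33.3, 35.7, 21.0, 24.1 and 25.2 CPM in WT_1 to WT_5. Het_8, WT_1 and WT_2 were the high libraries (log2 fold change -0.22, interval -0.62 to 0.18, and -0.10 with the library clusters as a covariate). CREM, which encodes activators and, from an internal promoter, the repressor ICER (ENSG00000095794, chromosome 10, 35126791 to 35212958), had 111, 99.1, 64.9, 111 and 108 CPM in Het_6 to Het_10, against 74.8, 76.7, 99.1, 84.9 and 85.9 CPM in WT_1 to WT_5. Counts per gene do not separate these CREM products, and exons of CREM overlap those of CUL2 on the opposite strand. Het_8 was the lowest library of all for CREM, and Het_6, Het_9 and Het_10 were above every CREBBP+/+ library.

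The CREM estimate depended on Het_8. The log2 fold change was 0.23 (SE 0.15, interval -0.10 to 0.56) with all libraries and 0.35 without Het_8, where the exact permutation p for log2 CPM was 0.0238 (n = 4 and 5) and the DESeq2 adjusted p 0.0627. With the library clusters as a covariate it was 0.07. CREM per CREB1, on the per-kilobase scale, was 2.02 in Het_8 and 2.97 to 3.42 in the other CREBBP+/- libraries, against 2.99 in WT_3 and 2.08 to 2.25 in the other CREBBP+/+ libraries.

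**Figure D3:**
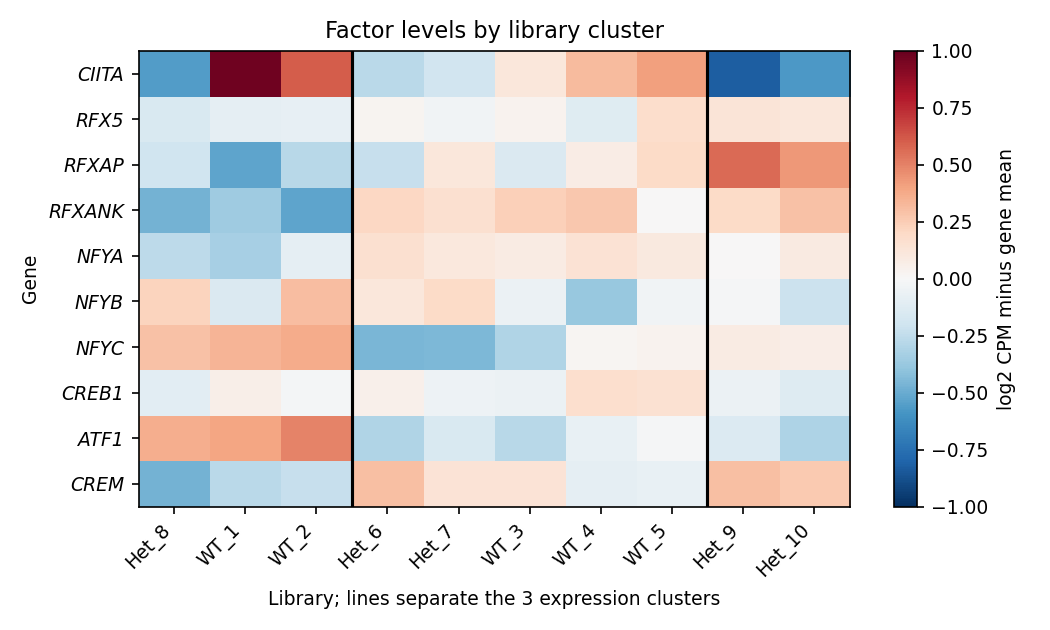
Log2 CPM of each factor minus its mean over the 10 libraries (colour), with libraries grouped by the 3 expression clusters, which were made without these genes. RFXANK, NFYA and CREM are lowest and NFYC and ATF1 highest in Het_8, WT_1 and WT_2, while CIITA is low in Het_8 and high in WT_1 and WT_2.

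In 5 of the 10 factors, Het_8, WT_1 and WT_2 did not overlap the other 7 libraries. RFXANK had 29.7 to 33.4 CPM in these 3 libraries and 43.0 to 52.4 CPM elsewhere, NFYA 32.2 to 38.0 and 40.6 to 45.4 CPM, and CREM 64.9 to 76.7 and 84.9 to 111 CPM. NFYC had 81.7 to 86.2 CPM in them and 48.4 to 70.2 CPM elsewhere, and ATF1 32.7 to 35.7 and 20.5 to 25.2 CPM. These libraries form a cluster over all genes, and 33.1% of all genes tested separated them from the rest, so the count is a description of this cluster. The cluster holds libraries of both genotypes, so a gene that separates it from the rest cannot also separate the genotypes.

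The lengths behind the per-kilobase levels limit the order of the factors. CIITA, with 22553 bases of merged exons, had 4.05 ± 0.707 CPM per kilobase in CREBBP+/- clones, against 7.98 ± 1.88 in CREBBP+/+ clones (n = 5 each), rank 10 and rank 7 of the 10 factors. With the 16061 bases of the MANE Select transcript, a length chosen after the values were seen, it had 5.68 and 11.2 CPM per kilobase, rank 10 and rank 6. In CREBBP+/+ libraries its range, 6.05 to 10.96 CPM per kilobase, overlapped those of NFYA (5.19 to 7.22), NFYB (5.33 to 8.58), CREB1 (5.82 to 6.81), ATF1 (7.41 to 12.6), RFXAP (7.98 to 13.1) and NFYC (8.998 to 14.4). In CREBBP+/- libraries it ran from 3.15 to 4.88 by merged exons and lay below the range of every other factor on that scale. With MANE Select lengths the spreads of the lowest factors met, at 5.68 ± 0.993 CPM per kilobase for CIITA, 6.66 ± 0.732 for NFYA and 7.01 ± 0.346 for CREB1 (SD, n = 5). Within each CREBBP+/- library, CIITA was below both NFYA and CREB1 on this scale.

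HLA-DRA, the invariant alpha chain of HLA-DR and the standard target of CIITA (ENSG00000204287, chromosome 6, 32439878 to 32445046), had 400, 422, 232, 311 and 298 CPM in Het_6 to Het_10, against 846, 851, 524, 704 and 626 CPM in WT_1 to WT_5. Ordered by HLA-DRA, the 5 CREBBP+/+ libraries came first, followed by Het_7, Het_6, Het_9, Het_10 and Het_8. The same 5 CREBBP+/+ libraries and then Het_7 and Het_6 filled ranks 1 to 7 for CIITA. WT_2 and WT_1, WT_4 and WT_5, and Het_8 and Het_9 exchanged places, and Het_10 held rank 9 for both genes.

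HLA-DRA counts per CIITA count were 3.82, 3.84, 2.71, 4.37 and 3.51 in Het_6 to Het_10, against 3.42, 4.44, 3.84, 4.48 and 3.74 in WT_1 to WT_5. This ratio does not depend on library scaling. Its ranges overlapped, and the means were 3.65 ± 0.611 in CREBBP+/- clones, against 3.99 ± 0.461 in CREBBP+/+ clones (n = 5 each). The difference was -0.14 in log2 ratio (exact permutation p = 0.413, two-sided, n = 5 each), with an interval of -0.47 to 0.18 for the shifts that the same test did not reject, or 0.723 to 1.13 as a fold. With the mean of HLA-DRA, HLA-DPA1, HLA-DPB1 and CD74 in place of HLA-DRA the difference was 0.0037. This value depends on the genes taken. HLA-DPA1 (log2 fold change -0.79) and CD74 (-0.73) differed less than CIITA (-0.98). Among the class II genes left out, some differed more, such as HLA-DRB1 (-1.51) and HLA-DQB1 (-1.74), and some less, such as HLA-DMA (-0.63). Het_8 had the lowest ratio of all libraries, and without it the difference was -0.03. It was -0.21 without Het_9 (exact permutation p = 0.183, n = 4 and 5) and -0.22 without Het_9 and Het_10 (exact permutation p = 0.214, n = 3 and 5).

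**Figure D4:**
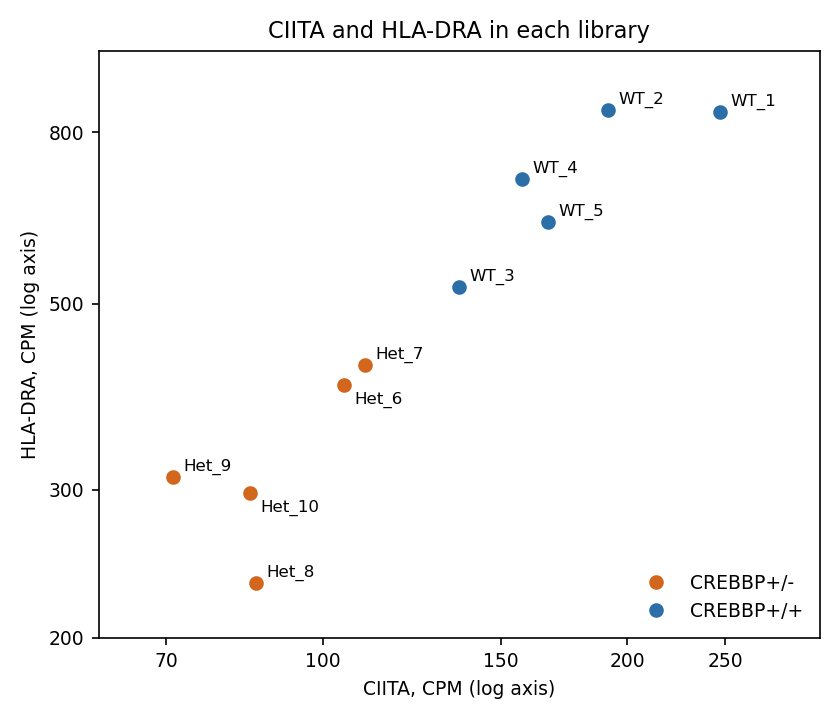
CIITA and HLA-DRA in CPM (log axes) for each library, with CREBBP+/- in orange and CREBBP+/+ in blue. CREBBP+/- libraries lie at 71.1 to 110 CPM of CIITA and 232 to 422 CPM of HLA-DRA, below all CREBBP+/+ libraries on both axes.

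No correlation with HLA-DRA was tested, because HLA-DRA fell into separate groups by genotype and a genotype held 5 libraries. Within a genotype, libraries were instead taken in pairs. The library with more CIITA also had more HLA-DRA in 7 of 10 CREBBP+/- pairs and in 8 of 10 CREBBP+/+ pairs, 15 of 20 in all, a count reached by 3.65% of all genes tested. CREB1 and ATF1 followed with 13 of 20, and NFYA and NFYB with 12. NFYC had 2 of 10 CREBBP+/- and 9 of 10 CREBBP+/+ pairs, ATF1 4 and 9, and CREM 6 and 1. RFX5 had 9, RFXAP 8 and RFXANK 7 of the 20 pairs in the order of HLA-DRA. These pairs share libraries and are a description.

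By Pearson's r of log2 CPM over the 10 libraries, the genes most like CIITA among 11501 with a mean of at least 1 CPM were 4 class II genes and 4 others. They were HLA-DQB2 (r = 0.961), HLA-DRA (0.946), HLA-DPB1 (0.942), the retinoic acid receptor RARA (0.930), the tubulin gene TUBB (0.924), HLA-DQB1 (0.924), CHI3L2 (0.912) and ERGIC1 (0.905). These 8 genes had no overlap between the genotypes and were lower in CREBBP+/-, so r holds the genotype difference. CREBBP stood at rank 28 (0.868). Of the other factors CREB1 was the most like CIITA (0.61, rank 555) and RFXAP the least (-0.66, rank 10983).

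Of 13 class II genes on the list of CIITA targets, 0 passed the edgeR threshold over all genes, 12 had an unadjusted edgeR p under 0.05 and a lower level in CREBBP+/- libraries, where 2.6% of all genes did, and DESeq2 called 9 lower (0.128% of all genes). The genotypes did not overlap in 11 of the 13, lower in CREBBP+/-, as in 0.594% of all genes tested. The median log2 fold change was -1.08, against -0.01 over all genes tested. The smallest p-values belonged to HLA-DPB1 (-1.17, SE 0.17), HLA-DRA (-1.09, SE 0.19), HLA-DRB1 (-1.51, SE 0.29) and HLA-DQB1 (-1.74, SE 0.37), and reads of the DRB and DQ genes could be split with close paralogs. HLA-DOB, named after its values were seen and whose promoter is shown above with TGATG and the Y box letters, had a log2 fold change of -0.21 (SE 0.27). It encodes the beta chain of HLA-DO and is known to be regulated partly apart from CIITA in B cells. Lower class II expression was known from earlier results on these data, so the count does not stand as independent evidence of direction.

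Among 24 listed regulators of CIITA transcription, none had an unadjusted edgeR p under 0.05, and 16 were below 0 (median log2 fold change -0.08). The smallest p-values were those of the B cell factors MEF2C (0.29, SE 0.16) and EBF1 (0.38, SE 0.34), the interferon gamma receptor chain IFNGR2 (-0.15, SE 0.13) and TCF3, which encodes the E proteins E12 and E47 (-0.16, SE 0.16). Of 14 coactivators and transcription factors that CIITA is known to contact, 1 was lower at an unadjusted edgeR p under 0.05, CREBBP. Of all genes tested, 2.6% were. The methyltransferase CARM1 (-0.29, SE 0.21), the elongation kinase CDK9 (-0.09, SE 0.09) and the coactivator NCOA3 (-0.14, SE 0.16) followed CREBBP. Of 9 deacetylases and corepressors, 7 were below 0 (median log2 fold change -0.09), among them HDAC1 (-0.21, SE 0.14), HDAC4 (-0.26, SE 0.21) and HDAC5 (-0.17, SE 0.15).

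The relatives and partners of the DNA-binding factors gave few small p-values. Of 8 other genes of the RFX family and of ANKRA2, the paralog of RFXANK, 5 were tested, led by RFX3 (0.37, SE 0.18), RFX1 (-0.23, SE 0.14) and RFX2 (-0.33, SE 0.40), with ANKRA2 at 0.13 (SE 0.21). Of 15 kinases, phosphatases and coactivators that act on CREB, none had an unadjusted edgeR p under 0.05 (median log2 fold change -0.0047), and the first were the kinase gene RPS6KA1 (-0.31, SE 0.15), PPP1CA (-0.24, SE 0.17), SIK3 (0.12, SE 0.11) and PRKAR2A (-0.12, SE 0.14). Of 13 other basic leucine zipper genes, 9 were above 0 (median 0.15), and 1 was higher in CREBBP+/- at an unadjusted edgeR p under 0.05, as 2.38% of all genes were. JUN had 2.35, 2.56, 18.3, 17.2 and 18.7 CPM in Het_6 to Het_10, against 1.54, 3.93, 2.53, 4.34 and 2.29 CPM in WT_1 to WT_5. It was high in Het_8, Het_9 and Het_10 and within the CREBBP+/+ range in Het_6 and Het_7. FOS (0.68, SE 0.35), ATF5 (0.40, SE 0.28) and ATF6 (0.15, SE 0.11) followed.

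Targets of the promoter factors outside class II were read from fixed lists. Of 11 tested CREB targets, 6 were above 0 (median log2 fold change 0.05). At an unadjusted edgeR p under 0.05, 1 of the 11 was higher in CREBBP+/-, NR4A1, where 2.38% of all genes tested were. The orphan receptor gene NR4A1 had 87.5, 75.3, 175, 133 and 162 CPM in Het_6 to Het_10, against 56.5, 68.7, 89.1, 86.1 and 61.3 CPM in WT_1 to WT_5. Its level was above every CREBBP+/+ library in Het_8, Het_9 and Het_10 (log2 fold change 0.80, SE 0.24), the same libraries in which JUN was high. The edgeR adjusted p of NR4A1 was 0.842, and FOS, NR4A3 (0.68, SE 0.38) and EGR1 (0.49, SE 0.39) came after it. Of 16 NF-Y targets, none had an unadjusted edgeR p under 0.05 (median 0.01), and PLK1 (-0.21, SE 0.12), CCNB2 (-0.14, SE 0.10) and HSPA1B (0.33, SE 0.26) had the smallest p-values. Class I genes carry a related promoter block that NLRC5, a relative of CIITA, acts on. All 9 listed were below 0 (median -0.28), where 52.4% of all genes tested were. At an unadjusted edgeR p under 0.05, 1 of the 9 was lower, HLA-E (-0.46, SE 0.21), against 2.6% of all genes, while TAP1 (-0.15, SE 0.07), HLA-F (-0.35, SE 0.21) and HLA-C (-0.36, SE 0.26) did not. HLA-E had 30.8 CPM in Het_8 and 55.0 to 74.1 CPM in the other CREBBP+/- libraries, against 72.7 to 95.3 CPM in CREBBP+/+ libraries.

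CIITA and CREBBP lie on the same chromosome, 6.99 Mb apart, so genes near CIITA were read for a shared difference. Of 13 tested genes within 1 Mb of CIITA, 12 were below 0, where 52.4% of all genes tested were, and none had an unadjusted edgeR p under 0.05. Their median log2 fold change was -0.09, against -0.01 over all genes tested. CLEC16A, the next gene downstream, had 49.3 ± 7.52 CPM in CREBBP+/- clones, against 52.6 ± 4.28 CPM in CREBBP+/+ clones (n = 5 each). Its log2 fold change was -0.09 with an interval of -0.34 to 0.16, which does not reach the interval of CIITA. NUBP1 (-0.30, interval -0.65 to 0.04), LITAF (-0.77, interval -1.59 to 0.06), TVP23A (-1.09, interval -2.37 to 0.19), SOCS1 (-0.29, interval -2.23 to 1.66) and RMI2 (-0.09, interval -0.72 to 0.53) had intervals that overlap it, and TVP23A averaged under 1 CPM in both genotypes. The remaining estimates were -0.19 for ZC3H7A, -0.09 for TXNDC11, -0.08 for ATF7IP2, -0.07 for GSPT1, -0.03 for RSL1D1 and -0.01 for SNN.

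**Figure D5:**
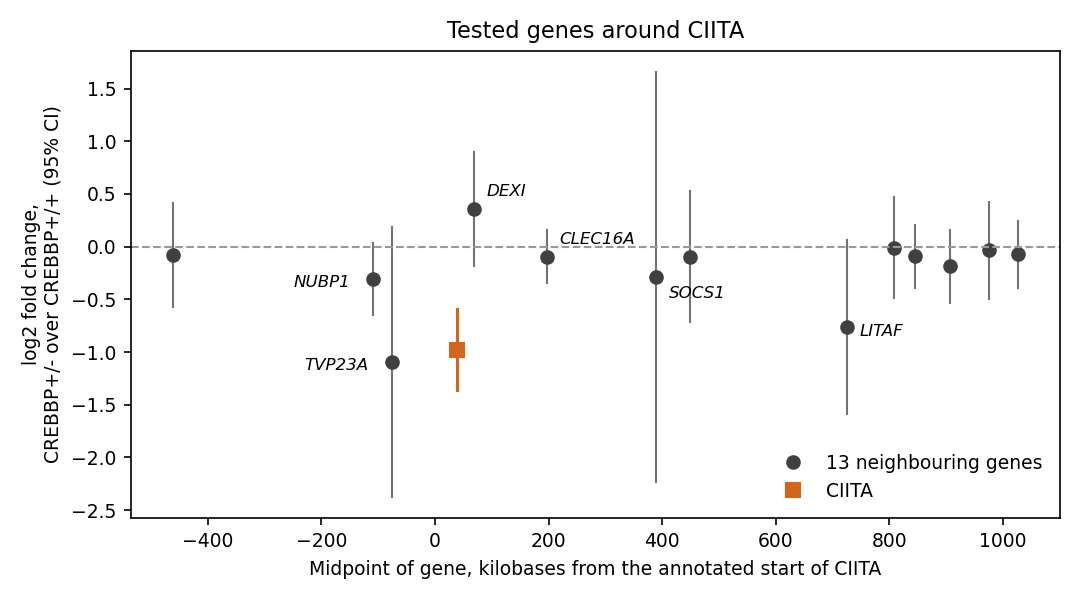
Log2 fold change, CREBBP+/- over CREBBP+/+, with the edgeR 95% confidence interval, for CIITA (square) and 13 tested genes within 1 Mb (circles), by distance of the gene's midpoint from the annotated start of CIITA. CIITA is at -0.98, its neighbour CLEC16A at -0.09 and DEXI at 0.36.

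Between CREBBP and CIITA, 27 of 31 tested genes were below 0, with a median log2 fold change of -0.16. At an unadjusted edgeR p under 0.05, 1 of the 31 was lower, near the 2.6% of all genes tested. The groups overlapped in all 31, and were separate and lower in 0.594% of all genes. By library, the mean log2 CPM of these genes, each minus its own mean, was -0.18, -0.24, -0.15, -0.01 and 0.12 in Het_6 to Het_10, against 0.20, 0.08, -0.03, -0.04 and 0.25 in WT_1 to WT_5. The same value for CIITA was -0.27, -0.19, -0.55, -0.82 and -0.57 in Het_6 to Het_10, against 0.97, 0.60, 0.11, 0.32 and 0.41 in WT_1 to WT_5. The libraries were ordered differently by the intervening genes and by CIITA. The part of gene dose in the CIITA level was not tested.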

How the data were processed

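For 10 unpooled libraries, the authors deposited a table of raw counts by Ensembl gene. Among the tools in the submitters' processing notes are STAR and featureCounts, with FastQC and DESeq2, and GRCh38 is the build they list; versions, annotation and strand setting are not given there. From 10000 upward, deposited counts carry 4 significant digits. CREBBP+/+ columns carry the labelled clone names, whereas Het_6 to Het_10 match no labelled number and were used by genotype.

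CREBBP+/- was compared with CREBBP+/+ in edgeR 4.0.16 (quasi-likelihood F-test, R 4.3.3) with TMM factors and filterByExpr (minimum count 10, total 15), which removed 9213 genes, and Benjamini-Hochberg adjustment at 0.05 over 11961 genes. CPM used TMM factors, and log2 CPM a prior count of 2. Library clusters came from average linkage of log2 CPM without the factors, CREBBP and class II genes. Coordinates and exon lengths are those of GENCODE on GRCh38. Alternatives were DESeq2 1.42.0, limma-voom (limma 3.58.1), other scalings and filters, the clusters as a covariate and leaving out libraries. The edgeR fit and the exact permutation test were tested on simulated data.

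The factors and gene lists were chosen with earlier results of these data known. Named genes are the factors, HLA-DRA, CREBBP, tested genes within 1 Mb of CIITA, 4 members of each list with the smallest p, and the 8 genes most like CIITA. Some genes that this rule names are not reported here. Confidence intervals come from the edgeR fit.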

Additional observations from a re-analysis of the deposited data

Results flagged for a closer look

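In 3 of 26 groups of 5 values, 1 library stood far from the other 4 of its genotype, where chance gives about 1 in 20 groups. All 3 concerned Het_8, the single CREBBP+/- library that clusters with WT_1 and WT_2. On the log2 CPM scale Het_8 was lowest for RFXANK (4.95, next 5.58), highest for ATF1 (5.04, next 4.53) and lowest for CREM (6.02, next 6.63).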

How the results depend on the processing

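CIITA kept a log2 fold change below 0 in every alternative run, from -1.06 to -0.84 leaving out 1 library in edgeR and from -1.06 to -0.84 in DESeq2. It passed the threshold in DESeq2 (-0.98) and, in alternatives chosen after seeing the data, in DESeq2 without Het_9 and Het_10 (-0.84, adjusted p = 0.046) and in each DESeq2 fit without 1 library (adjusted p 1.53e-05 to 0.00674). It did not pass under the edgeR scalings, filters, covariate or left-out libraries (adjusted p 0.198 to 1.00). DESeq2 called 33 genes, 12 without Het_9 and Het_10, and 12 to 127 without 1 library (12 without Het_9, 15 without WT_1, 16 without Het_10, 18 without WT_4, 112 without WT_3 and 127 without Het_8); edgeR called 0 to 1, the 1 without Het_6. The number of factors called was 1 in DESeq2, also without Het_9 and Het_10, and 1 in each DESeq2 fit without 1 library, and 0 leaving out 1 library in edgeR. Estimates of RFX5 (-0.046), RFXANK (-0.0078) and NFYA (-0.0014) changed sign with the clusters as a covariate, RFX5 also without Het_9 and Het_10 (-0.033 in edgeR, -0.032 in DESeq2) and NFYA without WT_1 (-0.033 in edgeR, -0.031 in DESeq2, -0.037 in log2 CPM); NFYA ranged up to 0.10 leaving out 1 library (0.11 in log2 CPM). HLA-DRA per CIITA ran from -0.21 to -0.03 leaving out 1 library, and was 0.0037 with 4 class II genes as the target. The cause was not tested. CIITA per kilobase was 11.2 CPM with the MANE Select length. No paired analysis was possible because the CREBBP+/- columns carry no number of a labelled clone. Het_9, the shallowest library with 10615977 counts, has the widest counting error.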

Other observations

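PRDM1, which encodes a repressor of CIITA in plasma cells, was read beside CIITA and was chosen after its values were seen. PRDM1 had 48.3, 39.6, 2.29, 9.28 and 10.8 CPM in Het_6 to Het_10, against 1.79, 3.71, 66.6, 44.8 and 46.3 CPM in WT_1 to WT_5. Within CREBBP+/+ libraries, WT_1 and WT_2 had the least PRDM1 and the most CIITA. Within CREBBP+/- libraries, Het_6 and Het_7 had the most of both, and Het_8 had the least PRDM1 with 85.8 CPM of CIITA. PRDM1 was higher in WT_3, WT_4 and WT_5 than in Het_9 and Het_10, which had less CIITA. The part of PRDM1 in the CIITA level was not tested.

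Near CIITA, the cytokine signalling inhibitor gene SOCS1 followed the library clusters, with 1.36 CPM in Het_8 and 11.7 to 15.2 CPM in the other CREBBP+/- libraries, against 0.863 and 1.09 CPM in WT_1 and WT_2 and 19.1 to 25.3 CPM in the other CREBBP+/+ libraries. LITAF ran the other way, with 57.6 CPM in Het_8 and 18.8 to 34.3 CPM in the other CREBBP+/- libraries, against 94.9 and 81.8 CPM in WT_1 and WT_2 and 35.8 to 38.4 CPM in the rest.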
